A study of Sus scrofa with 30 samples.

Results

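The transcripts of the 4 casein genes of the pig, CSN1S1, CSN1S2, CSN2 and CSN3, were followed through mid-gestation, late gestation, 2 points of lactation and weaning. The members were chosen by gene identity, with earlier results of these data known, as every transcript that the Sscrofa11.1 RefSeq annotation assigns to these genes. These were 6 transcripts among the 61773 in the table and 4 genes among the 14913 annotated ones that could be matched. CSN1S1, CSN2 and CSN3 had 1 transcript each (NM_001004029.2, NM_214434.2 and NM_001004026.1) and CSN1S2 had 3 (NM_001004030.1, which is its main one, XM_021100497.1 and XM_021100498.1). The RNA came from bulk mammary parenchyma, taken from the third gland on the left side, of multiparous half-sib sows, all of a Danish Landrace × Yorkshire cross kept on a single farm, with 6 sows slaughtered at each stage and no treatment other than the stage itself. MG was taken on day 70 of gestation, LG on day 110 of gestation, EL on day 2 and PL on day 10 after farrowing, and W2 on day 2 after weaning.

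Caseins are the main proteins of the milk curd and are made by the luminal secretory cells of the mammary alveoli. The calcium-sensitive caseins, αs1-casein (CSN1S1), αs2-casein (CSN1S2) and β-casein (CSN2), carry clusters of phosphoserine that bind calcium phosphate, and κ-casein (CSN3), which is glycosylated, sits on the surface of the casein micelle and keeps it from aggregating. Transcription of casein genes in mammals is driven by prolactin through STAT5, together with glucocorticoids, and milk removal ending at weaning is followed by involution of the gland. In bulk tissue, fewer secretory cells and less casein RNA per cell cannot be told apart.

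The 4 genes lie in a single cluster on chromosome 8 (Sscrofa11.1) that spans 220.9 kb, from 66888231 to 67109112. CSN1S1 occupies 66888231 to 66908306, CSN2 follows at 66914231 to 66922636, CSN1S2 at 66971081 to 67012343 and CSN3 at 67099131 to 67109112. All 4 are annotated as protein coding, and each value is a level of the whole transcript rather than of an exon or UTR.

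Each level is given in units of the deposited table, which the authors call FPKM. The units are per transcript length and reach nearly the same sum in every sample (997480 to 1002643), so levels of different genes can be set side by side, and the rise of a few abundant transcripts lowers the share left for all others. The table gives no reads per transcript, and read counts were not analysed here. In each stage, 3 of the 6 samples were nearly the same as each other, with median differences of at most 1.85% within a stage, and their casein values lay within 0.252% of the mean of the other 3 samples wherever that mean reached 100 units. These 15 samples were not counted, which left n = 3 for each stage (MG 1, 3 and 6, LG 1, 3 and 4, EL 3, 4 and 6, PL 2, 3 and 6, W2 2, 3 and 6). The labels contradict each other, since samples titled EL carry the name of mid-gestation in another field and samples titled MG that of early lactation. The titles were followed, and every comparison with EL or MG rests on them. By title, α-lactalbumin transcripts (LALBA) averaged 1547 units in EL and 55.8 units in MG. Luminal epithelial markers were present in all 15 samples (summed level 791 to 2107 units).

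β-casein, CSN2, was the highest of the 4 caseins in MG, LG and EL on average. Its level was 16977, 4862 and 7615 units in the 3 MG samples, 21151, 31971 and 12576 in LG and 33157, 48522 and 58718 in EL. In PL it was 98647, 38297 and 17661 units, and in W2 it was 3799, 1405 and 2901. The W2 samples lay below all others, the EL samples lay above all LG samples, and PL spread so widely, 5.59-fold from its lowest to its highest sample, that it overlapped both EL and LG. In the 3 EL samples CSN2 ranked 2 among all 61773 transcripts.

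αs1-casein, CSN1S1, had its highest stage means in EL and LG, whereas the other 3 caseins had theirs in PL and EL. For CSN2, PL stood above EL by the mean in units only. Its median was 48522 units in EL and 38297 in PL, and its mean log2 level was 15.48 and 15.31. CSN1S1 stood at 5164, 4045 and 4921 units in MG, 7570, 15187 and 17153 in LG and 19178, 12867 and 10237 in EL. In PL it was 7573, 10909 and 5455 units, and in W2 it was 2626, 2722 and 2548. All LG, EL and PL samples exceeded all MG samples, which in turn exceeded all W2 samples, while LG, EL and PL overlapped each other. Its spread within W2 was small, with an SD of 3.33% of the mean.

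αs2-casein, CSN1S2, covered the widest range of the 4 caseins, from below 1 unit in a W2 sample to 84107 units in a PL sample. Its main transcript stood at 255, 23.2 and 681 units in MG, 3531, 2088 and 95.1 in LG and 1442, 29830 and 13842 in EL. In PL it was 84107, 47856 and 32066 units, and in W2 it was 39.3, 0.565 and 17.2. The 3 PL samples lay above every other sample, whereas MG, LG and EL overlapped in part and the lowest MG sample lay within the range of W2. Sows of the same stage differed widely outside PL, by 29.4-fold in MG, 37.1-fold in LG, 20.7-fold in EL and 69.5-fold in W2, against 2.62-fold in PL. Its rank among all transcripts was 2 to 4 in PL and 2359 to 37269 in W2.

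κ-casein, CSN3, showed the cleanest separation of the stages. It stood at 6961, 2969 and 4041 units in MG, 7072, 9712 and 4041 in LG and 9885, 26420 and 18886 in EL. In PL it was 51705, 27038 and 28090 units, and in W2 it was 1642, 1640 and 2515. The PL samples exceeded all EL samples, the EL samples exceeded all LG samples, LG and MG overlapped, and W2 lay below all others.

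**Figure D1:**
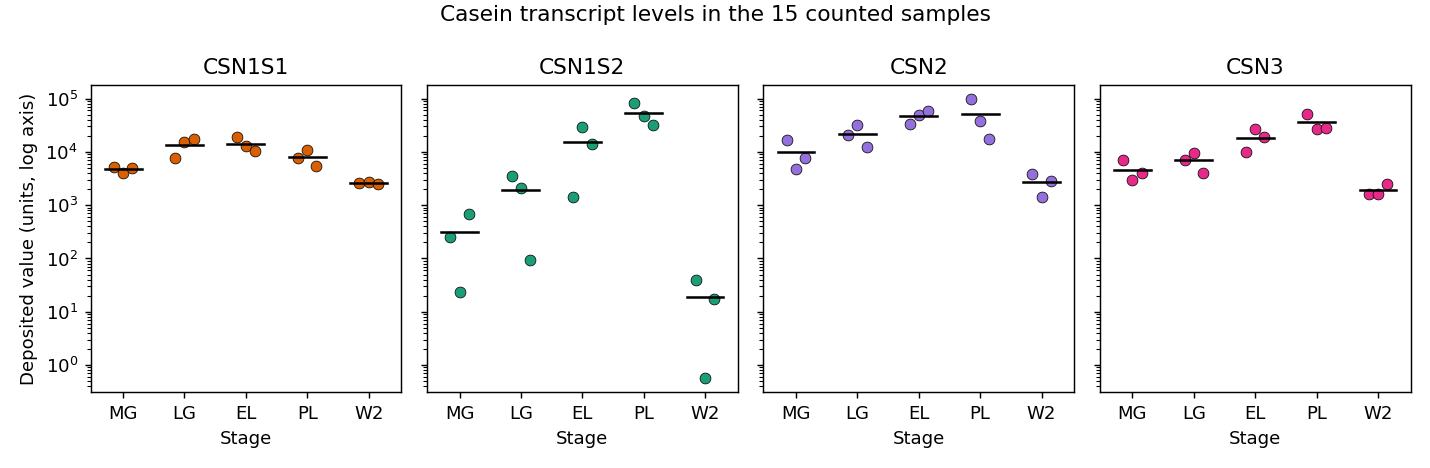
Level of the main transcript of each casein gene in the 15 counted samples, in deposited units on a log axis, by stage. Points are single sows (3 per stage) and bars are stage means; CSN1S2 falls from 32066 to 84107 units in PL to 0.565 to 39.3 units in W2, while CSN1S1 stays between 2548 and 19178 units throughout.

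The order of the stage means differed among the genes. For CSN3 the order was PL (35611 ± 13948 units, SD, n = 3), EL (18397 ± 8278), LG (6942 ± 2838), MG (4657 ± 2066) and W2 (1932 ± 505), and only LG and MG among neighbours in it overlapped. For CSN1S2 it was the same order, from PL (54676 ± 26683) and EL (15038 ± 14232) through LG (1905 ± 1725) and MG (320 ± 334) to W2 (19.0 ± 19.4), but only PL and EL were separated. For CSN2 the order was PL (51535 ± 42085), EL (46799 ± 12868), LG (21899 ± 9719), MG (9818 ± 6351) and W2 (2702 ± 1210), with PL and EL overlapping and LG and MG overlapping. For CSN1S1 it was EL (14094 ± 4595), LG (13303 ± 5062), PL (7979 ± 2750), MG (4710 ± 589) and W2 (2632 ± 87.5), with EL, LG and PL overlapping in turn.

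The first comparison set the stages with milk secretion, EL and PL, against MG, LG and W2. CSN1S2, CSN2 and CSN3 were higher in lactation and CSN1S1 was not called, where a call in limma needed a Benjamini-Hochberg adjusted p below 0.05 over all transcripts and a log2 fold change of 2 or more in either direction. These 3 of 4 main transcripts compare with 0.249% of all transcripts called higher. CSN1S2 rose by a log2 fold change of 7.56 ± 1.09 (standard error; adjusted p = 0.0025), CSN2 by 2.50 ± 0.39 (adjusted p = 0.0038) and CSN3 by 2.67 ± 0.28 (adjusted p = 0.00051). CSN1S1 differed by 0.93 ± 0.20 (adjusted p = 0.018), short of the fold threshold. The call for CSN2 was lost after quantile normalization (1.45, adjusted p = 0.0503) and after scaling to the luminal markers described further on (3.03, adjusted p = 0.061).

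Exact permutation of the 15 samples between the same sides (two-sided, 5005 permutations) gave p = 0.0002 for CSN3, the smallest these permutations can give. By that exact permutation test p was 0.0014 for CSN1S2, 0.0030 for CSN2 and 0.073 for CSN1S1. Of the 4 main transcripts, CSN3 was the one without overlap between the sides, where 0.144% of all transcripts were higher without overlap. In CSN1S2 the overlap came from EL replicate 3, whose 1442 units lay below LG replicates 1 and 3. In CSN2 it came from PL replicate 6, whose 17661 units lay below LG replicates 1 and 3.

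The steps up to lactation, taken one stage at a time, gave no casein call in limma. In LG vs MG, 0 of 4 main transcripts were called and 1 had an unadjusted p below 0.05, against 0.0162% and 4.42% of all transcripts. CSN1S1 was that casein, and its log2 fold change was 1.42 ± 0.31 (adjusted p = 0.42), its mean in LG being 2.82 times that in MG. In EL vs LG, 0 of 4 were called and 1 had an unadjusted p below 0.05 (background 0.0178% and 4.91%), although CSN2 and CSN3 were higher in EL without overlap, as 2.12% of all transcripts were. The log2 fold changes were 1.16 ± 0.61 for CSN2 and 1.38 ± 0.43 for CSN3. In PL vs EL, 0 of 4 were called and 2 had an unadjusted p below 0.05 (background 0.408% and 9.9%). CSN1S2 (2.59 ± 1.68) and CSN3 (1.00 ± 0.43) were higher in PL without overlap, as 2.55% of all transcripts were, whereas CSN1S1 differed by -0.83 ± 0.31 and CSN2 by -0.17 ± 0.61.

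Steps that spanned more of the cycle reached the threshold in part. In EL vs MG, 0 of 4 main transcripts were called in limma and 4 had an unadjusted p below 0.05 (background 0.0389% and 7.71%), although all 4 were higher in EL without overlap, as 2.29% of all transcripts were. In PL vs MG, CSN3 rose by 2.96 ± 0.43 (adjusted p = 0.0024) and CSN1S2 by 8.30 ± 1.68 (adjusted p = 0.016), 2 of 4 where 0.385% of all transcripts were called higher. CSN2 differed by 2.24 ± 0.61 (adjusted p = 0.058) and CSN1S1 by 0.71 ± 0.31 (adjusted p = 0.24). In PL vs LG, CSN3 rose by 2.38 ± 0.43 (adjusted p = 0.012) and was the single casein called, against 0.269% of all transcripts called higher. Relative to the mean of the 4 other stages, CSN3 (2.63 ± 0.34) and CSN1S2 (7.29 ± 1.33) were called higher at PL, where the background was 0.544%.

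CSN1S2, CSN2 and CSN3 were lower on day 2 after weaning than on day 10 of lactation. These were different sows, and no sample was taken between those stages. In W2 vs PL these 3 of 4 main transcripts were called lower, where 0.549% of all transcripts were, and all 4 were lower without overlap, where 2.71% were. CSN1S2 fell by 12.44 ± 1.68 on the log2 scale (adjusted p = 0.0014), CSN2 fell by 4.02 ± 0.61 (adjusted p = 0.0025) and CSN3 fell by 4.17 ± 0.43 (adjusted p = 0.00035). CSN1S1 differed by -1.54 ± 0.31 (adjusted p = 0.012), short of the fold threshold. As ratios of stage means, PL exceeded W2 by 2877-fold in CSN1S2, 19.1-fold in CSN2, 18.4-fold in CSN3 and 3.03-fold in CSN1S1. Single samples weighed on the larger ratios, since that of CSN1S2 was 6163 without W2 replicate 2 and that of CSN2 was 10.4 without PL replicate 2. The fitted log2 fold change of CSN1S2 ran from -13.51 to -10.90 without each sample in turn. In a fit with PL and W2 alone, the adjusted p was 0.37 for CSN2 and 0.27 for CSN3, and the call for CSN1S2 was kept.

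The other comparisons with W2 gave a different set of calls. In W2 vs EL, CSN1S1 fell by 2.37 ± 0.31 (adjusted p = 0.015), CSN2 fell by 4.19 ± 0.61 (adjusted p = 0.027) and CSN3 fell by 3.17 ± 0.43 (adjusted p = 0.017). These were 3 of 4, where 0.0324% of all transcripts were called lower, and CSN1S2 differed by -9.86 ± 1.68 (adjusted p = 0.064). In W2 vs LG, CSN1S1 fell by 2.25 ± 0.31 (adjusted p = 0.031) and was the single casein called, against 0.0162% of all transcripts called lower. In W2 vs MG, 0 of 4 were called in limma and 4 had an unadjusted p below 0.05 (background 0.0275% and 4.63%), although CSN1S1, CSN2 and CSN3 were lower in W2 without overlap, as 2.6% of all transcripts were. Over the 10 pairwise comparisons the 4 main transcripts had 10 calls, and these comparisons share samples.

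**Figure D2:**
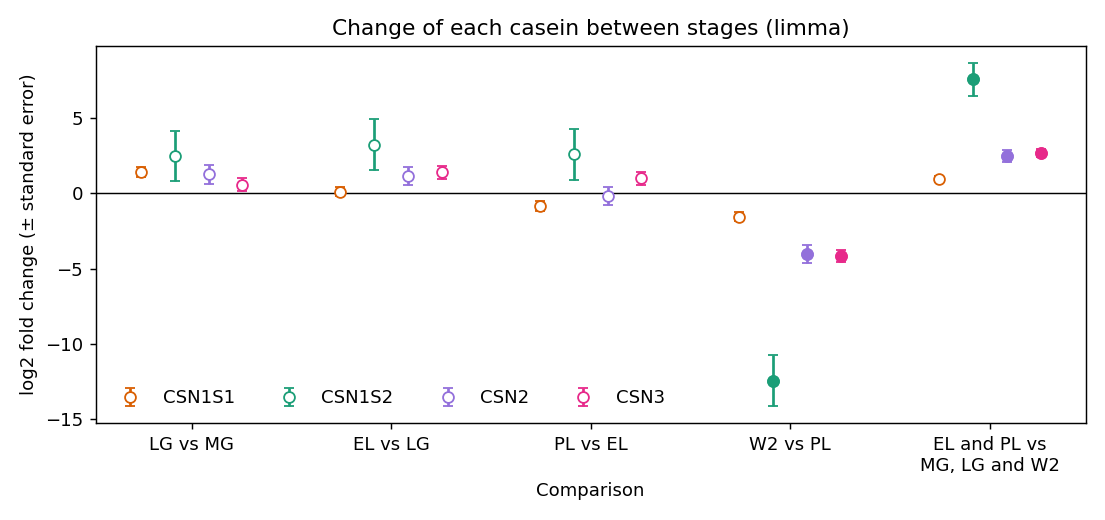
Fitted log2 fold change (vertical axis) of the main transcript of each casein gene in 5 comparisons, with standard errors as bars. Filled points passed the threshold and open points did not; no casein passed between neighbouring stages up to PL, and CSN1S2, CSN2 and CSN3 passed in W2 vs PL and in EL and PL vs MG, LG and W2.

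The bulk of transcripts had fold changes of the opposite sign to those of the caseins. Among transcripts of at least 10 units in the 15 samples, the median log2 fold change was -0.52 in EL and PL vs MG, LG and W2 and 0.82 in W2 vs PL. Scaling by the median ratio brought these medians to -0.08 and 0.12. Under that scaling CSN1S1 differed by 1.39 in lactation (adjusted p = 0.0043) and was called lower in W2 vs PL (-2.28, adjusted p = 0.0024), while CSN1S2, CSN2 and CSN3 kept their direction and their calls in both comparisons.

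The 4 genes together made up 2.94, 1.19 and 1.73% of all units in MG, 3.94, 5.91 and 3.39% in LG and 6.38, 11.8 and 10.2% in EL. In PL their share was 24.2, 12.4 and 8.34%, and in W2 it was 0.812, 0.579 and 0.800%. Every EL and PL sample exceeded every MG, LG and W2 sample, and the stage means ran from 0.731 ± 0.131% in W2 to 15.0 ± 8.25% in PL (SD, n = 3).

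The mix of the 4 caseins shifted between stages. Ratios of a pair of caseins within a sample do not depend on the total of the sample, so they were compared as log2 ratios for the 6 pairs. αs1-casein transcripts made up 17.6 to 34.0% of casein units in MG, 19.2 to 50.7% in LG, 10.1 to 30.1% in EL, 3.13 to 8.79% in PL and 31.9 to 47.1% in W2. αs2-casein transcripts made up 0.195 to 3.95% in MG, 0.281 to 8.98% in LG, 2.26 to 25.4% in EL, 34.8 to 38.6% in PL and 0.172 to 0.484% in W2. In PL the share of CSN1S1 was thus below and that of CSN1S2 above their values in all 12 other samples.

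β-casein held a broadly similar share until early lactation, with 40.9 to 57.8% in MG, 37.1 to 54.2% in LG and 41.2 to 57.7% in EL. Its share was 21.2 to 40.8% in PL and 24.3 to 46.9% in W2. κ-casein made up 23.4 to 24.9% in MG, 11.9 to 18.0% in LG, 15.5 to 22.5% in EL, 21.4 to 33.7% in PL and 20.3 to 31.5% in W2. The LG samples had the lowest mean share of κ-casein, 15.5 ± 3.15%, and lay below all MG samples, while they overlapped EL.

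**Figure D3:**
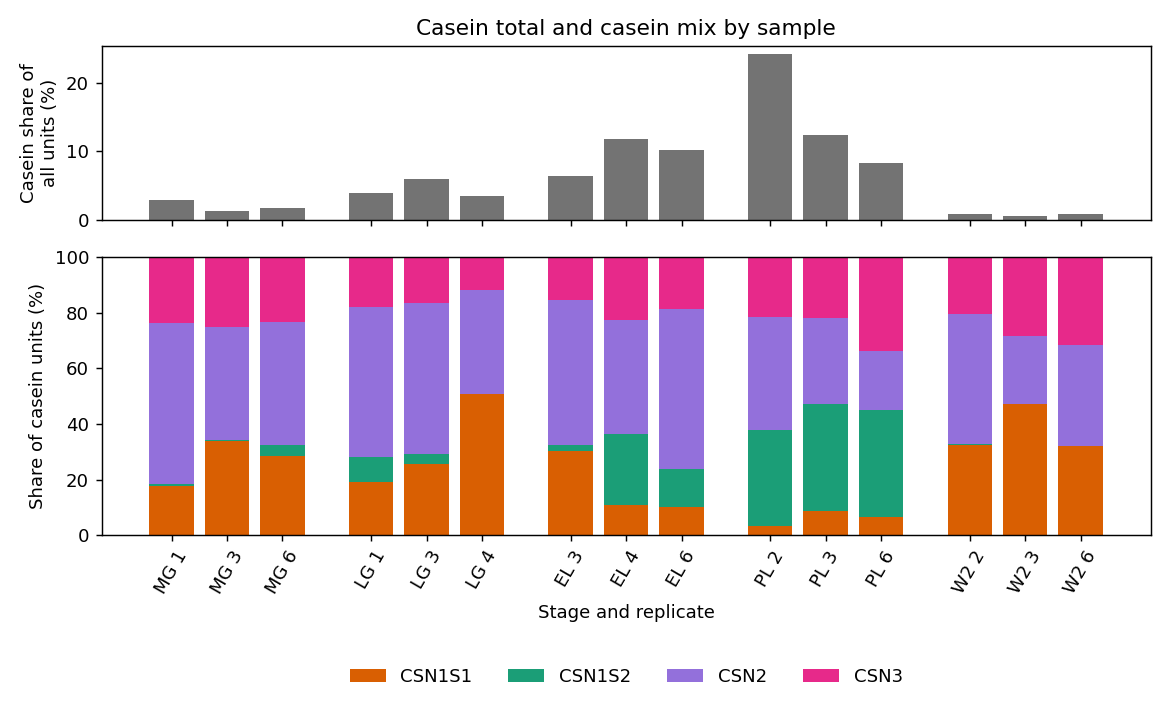
Share of the 4 casein genes in all units (upper bars, %) and share of each casein in the casein units (lower stacked bars, %) for each of the 15 counted samples. The share of CSN1S2 is 34.8 to 38.6% in the PL samples and at most 0.484% in the W2 samples, and that of CSN1S1 is at most 8.79% in PL.

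Exact permutation tests (two-sided) of the 6 log2 ratios between EL and PL and the other 3 stages passed for 5, at p adjusted over the 6 ratios of 0.0048 to 0.0055. The sides overlapped in all 6 ratios. CSN1S2 gained on CSN2 by 4.69 and on CSN3 by 4.53 on the log2 scale, and the ratio of CSN1S1 to CSN1S2 fell by 6.27. The ratio of CSN1S1 to CSN2 fell by 1.57 and that to CSN3 fell by 1.74. CSN2 and CSN3 were the pair whose ratio did not pass, with a difference of -0.17 (exact permutation p = 0.68).

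Set against the other 12 samples, PL had a mean log2 ratio of CSN1S1 to CSN1S2 of -2.72 against 4.12. Its ratio of CSN1S1 to CSN3 was -2.15 against 0.30, and that of CSN1S2 to CSN2 was 0.32 against -4.92. Each of these 3 ratios had no overlap and an exact permutation p of 0.0022, the smallest that 455 permutations can give (0.0044 adjusted over the 6 ratios). The ratio of CSN1S2 to CSN3 was also higher in PL without overlap (adjusted exact permutation p = 0.026), and it missed the threshold without PL replicate 2 (0.053) or 3 (0.066). That of CSN1S1 to CSN2 was lower by 1.59 (adjusted exact permutation p = 0.045), and without MG 3 or 6, LG 3 or 4, EL 3, any PL sample or W2 2 its adjusted p was 0.053 to 0.24. The ratio of CSN2 to CSN3 differed by -0.85 (adjusted exact permutation p = 0.070), and its adjusted p was 0.049 without PL 2, 0.033 without W2 3 and 0.046 without W2 6.

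Between PL and EL alone, 4 of the 6 ratios did not overlap, each at an exact permutation p of 0.1, which is the smallest that 3 against 3 allows. Those 4 were the ratio of CSN1S1 to CSN1S2, that of CSN1S1 to CSN3 and those of CSN1S2 to CSN2 and CSN3. Between EL and LG all 6 ratios overlapped, at an exact permutation p of 0.3 to 0.8. Between W2 and PL the 3 ratios with CSN1S2 and those of CSN1S1 to CSN2 and to CSN3 did not overlap, and the ratio of CSN2 to CSN3 did (0.40 against 0.25).

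**Figure D4:**
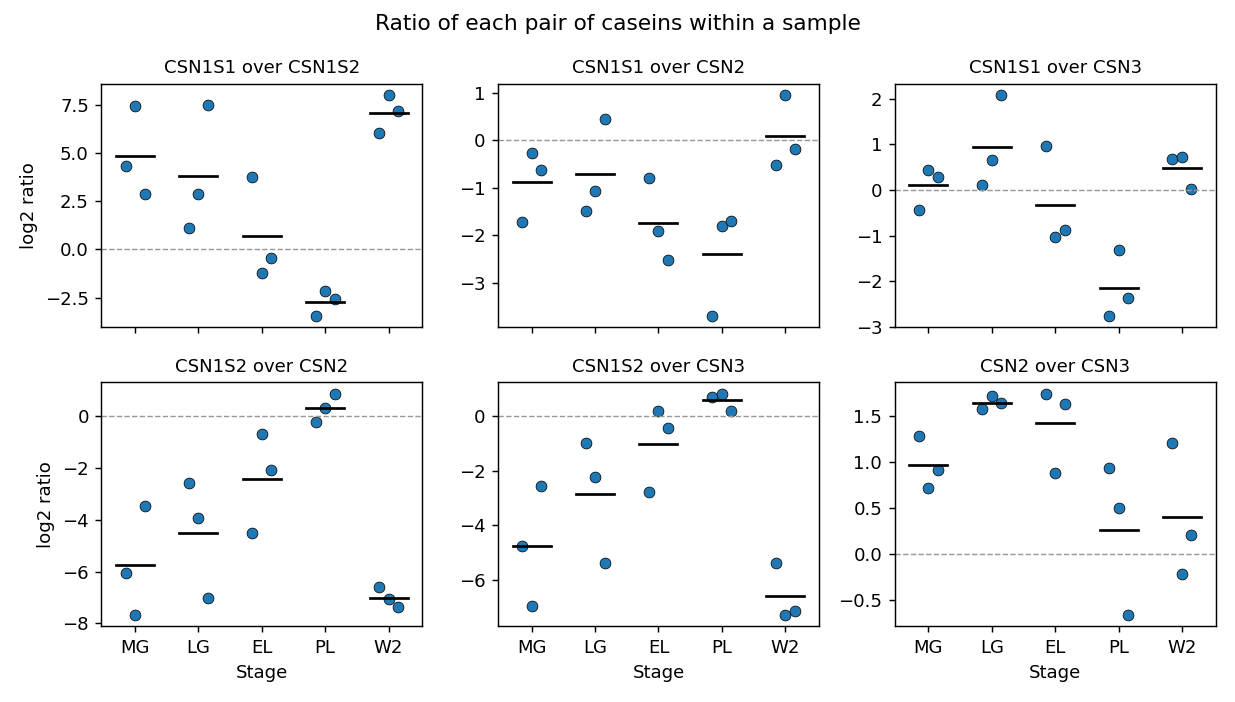
Log2 ratio of the levels of each pair of casein genes (vertical axes) in the 15 counted samples by stage, with points for sows and bars for stage means. The ratio of CSN1S1 to CSN1S2 is negative in all 3 PL samples (mean -2.72) and highest on average in W2 (mean 7.08), whereas the ratio of CSN2 to CSN3 overlaps between W2 and PL.

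Sows of the same stage also differed in mix. LG replicate 4, EL replicate 3 and W2 replicate 3 each had the highest CSN1S1 of their stage together with the lowest CSN1S2, CSN2 and CSN3. In these samples CSN1S1 made up 50.7, 30.1 and 47.1% of casein units. In W2 the differences in CSN1S1 and CSN3 were small, CSN3 being at 1640 units in replicate 3 and 1642 in replicate 2. Over the 15 samples, as a description, deviations from the stage means on the log2 scale had a Pearson r of 0.76 between CSN2 and CSN3 (same direction in 14 samples) and 0.73 between CSN1S2 and CSN3 (12 samples). CSN1S2 and CSN2 had 0.60 (13 samples). Deviations of CSN1S1 had an r of -0.37 with CSN1S2, 0.06 with CSN2 and -0.24 with CSN3. The points of each pair share their libraries and a common sum of units.

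CSN1S2 was the only casein gene with several annotated transcripts, and nearly all of its level lay in NM_001004030.1. XM_021100497.1 stood at 13.2 and 9.80 units in EL replicates 4 and 6 and at 44.0, 31.1 and 14.3 units in PL. That was 0.0441 to 0.0707% of the units of the gene. It was listed at 0 in all MG and LG samples, in EL replicate 3 and in W2 replicates 2 and 6. In W2 vs PL it was called lower (log2 fold change of -4.55, adjusted p = 0.034), a call kept in 13 of 28 alternative settings and lost without any one MG or LG sample, PL 2 or 3, or W2 2 or 6 (adjusted p 0.050 to 0.13).

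W2 replicate 3 stood apart in this gene. There XM_021100497.1 was at 6.05 units, XM_021100498.1 at 3.34 units and the main transcript at 0.565 units, which was 5.68% of the units of the gene. XM_021100498.1 was listed at 0 in the other 14 counted samples. With the transcripts of each gene summed, CSN1S2 rose in lactation by a log2 fold change of 7.20 (adjusted p = 0.00090), against 7.56 for the main transcript.

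Markers of luminal epithelium, the cells that make casein, were measured beside the caseins. None of the 6 (KRT7, KRT8, KRT18, KRT19, EPCAM and CDH1) was called in EL and PL vs MG, LG and W2 by limma (2 at an unadjusted p below 0.05), where 0.915% of all transcripts were called and 21.9% had such a p. EPCAM, a surface adhesion protein of epithelia, averaged 545, 540, 630, 590 and 604 units in MG, LG, EL, PL and W2. Its log2 fold change in lactation was 0.12 ± 0.11. The others went the other way, KRT7 by -0.73, KRT8 by -0.72, KRT18 by -0.58, KRT19 by -0.58 and CDH1 by -0.67. The median of the 6 markers was -0.63, against -0.35 over all transcripts and -0.52 over those with a mean of at least 10 units. Their summed level was 1122 to 1552 units in MG, 1192 to 1477 in LG, 994 to 1250 in EL, 791 to 1638 in PL and 1326 to 2107 in W2, and PL replicate 2, the sample with the highest casein share, was also the lowest in this sum. KRT7 was listed at 0 in 6 samples, all 3 of EL among them, and was highest in W2 replicate 6, while KRT8 ranged from 69.9 to 350 units and KRT19 from 78.5 to 456. After scaling each sample to the geometric mean of these 6 markers CSN2 was called neither in lactation nor in W2 vs PL (-4.32, adjusted p = 0.10). With KRT7 left out of that scaling, an alternative chosen after seeing the data, CSN2 was called in lactation (2.99, adjusted p = 0.018).

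Per luminal unit, casein transcripts amounted to 7.67 to 20.5 units in MG, 26.6 to 39.9 in LG, 54.0 to 102 in EL, 55.1 to 306 in PL and 3.47 to 6.11 in W2. MG, LG and W2 did not overlap with each other or with EL and PL on this scale, and EL overlapped with PL.

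**Figure D5:**
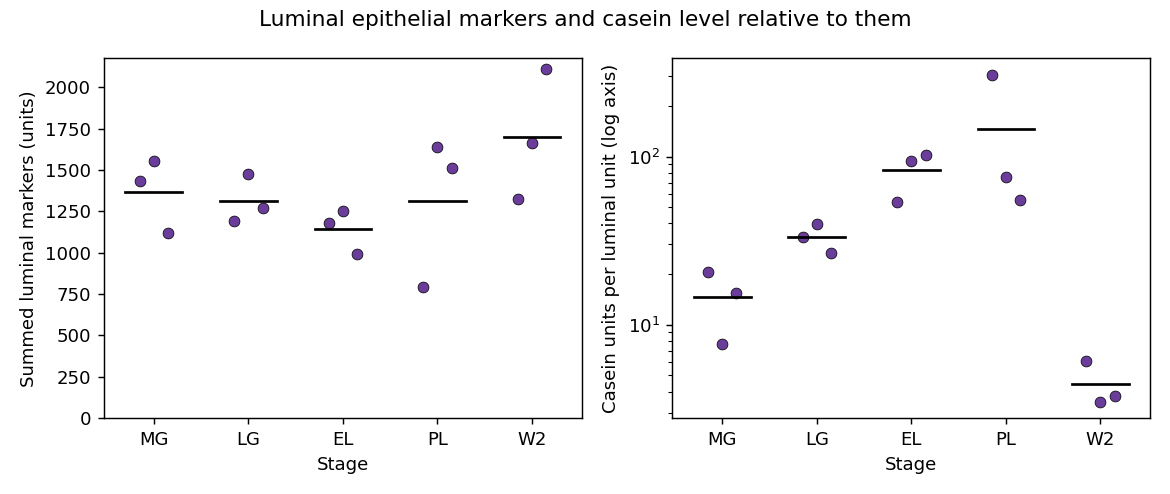
Summed level of 6 luminal epithelial markers (left, units) and casein units per luminal marker unit (right, log axis) in the 15 counted samples by stage, with points for sows and bars for stage means. The marker sum lies between 791 and 2107 units, while casein per luminal unit ranges from 3.47 in W2 to 306 in PL.

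Markers of other cell types were summed in the same way. Among fibroblast markers 0 of 5 were called in EL and PL vs MG, LG and W2 by limma (5 at an unadjusted p below 0.05, background 0.915% and 21.9%), and COL3A1, a fibrillar collagen, differed by -1.17 ± 0.21 (adjusted p = 0.0082). The summed fibroblast markers were 740 to 1153 units in EL and 429 to 990 in PL, against 1345 to 2054 in MG, 1013 to 1909 in LG and 1192 to 2309 in W2. Adipocyte markers summed to 253 to 388 units in PL, below the 444 to 732 units of the other stages, and nearly all of that sum was FABP4, a fatty acid carrier. LEP, leptin, ran the other way, at 4.98 ± 4.54 units in PL (from 0 to 8.89 units) and listed at 0 in the 12 other samples. It was called higher in PL against the other 4 stages. In limma it was not called in PL vs EL (adjusted p = 0.20) or W2 vs PL (adjusted p = 0.063). CIDEC, a lipid droplet protein, averaged 2.53 units in PL and 0.758 units in EL. Leukocyte markers summed to 7.73 to 20.5 units in EL and 9.00 to 18.4 in PL, against 20.2 to 47.9 units in MG, LG and W2. Their log2 fold changes in lactation were -2.54 for CSF1R, -0.84 for CD3E and -0.56 for CD79A. PTPRC went the other way, by 0.96 ± 0.95. Endothelial markers summed to 66.8 to 146 units and basal and myoepithelial markers to 743 to 1858 units over all samples. Of these lists 4 of 6 basal, 3 of 5 adipocyte, 4 of 6 leukocyte, 3 of 4 endothelial and 5 of 5 fibroblast genes were measured. Of the 14 basal, adipocyte, leukocyte and endothelial genes 0 were called in lactation by limma (6 at an unadjusted p below 0.05, against the same background), and in W2 vs PL 0 of the 19 genes of all 5 lists were called (8 at an unadjusted p below 0.05, as 22.3% of all transcripts had). The part of these cells in the casein differences was not tested.

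The whey proteins, the other secreted milk proteins, split. LALBA encodes α-lactalbumin, the regulatory subunit of lactose synthase, and averaged 55.8, 168, 1547, 13160 and 15.2 units in MG, LG, EL, PL and W2. It rose in lactation by a log2 fold change of 6.30 ± 0.97 (adjusted p = 0.0033) and fell in W2 vs PL by 9.45 ± 1.5 (adjusted p = 0.0033). WAP, the whey acidic protein, averaged 20.3, 63.2, 416, 8503 and 2.43 units. It rose by 7.21 ± 0.87 (adjusted p = 0.0011) and fell by 11.57 ± 1.34 (adjusted p = 0.00059) in the same comparisons.

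PAEP, β-lactoglobulin, did not pass in either comparison, with log2 fold changes of 0.10 ± 0.08 (adjusted p = 0.49) and -0.14 ± 0.12 (adjusted p = 0.52). Among all 15 counted samples its profile had a Pearson r of 0.60 with the mean casein profile, against 0.90 for LALBA and 0.86 for WAP. The 3 whey genes together summed to 98689 to 164995 units over the 15 samples, with the lowest stage mean, 111136 units, in W2. Most of that sum was PAEP at every stage, with stage means from 111118 units in W2 to 139487 in EL.

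Genes of prolactin signalling and of casein transcription were mostly not called, and the prolactin receptor was not among the 15 measured. Of 15 measured among 16, 0 were called in EL and PL vs MG, LG and W2 by limma and 6 had an unadjusted p below 0.05 (background 0.915% and 21.9%), with a median log2 fold change of -0.37 against -0.35 over all transcripts. CEBPD, a C/EBP factor, was the exception in the comparisons with PL. It averaged 17.6, 22.8, 21.6, 173 and 18.2 units in MG, LG, EL, PL and W2 and fell in W2 vs PL by 3.09 ± 0.58 (adjusted p = 0.0078). CEBPB, its relative, differed in the other direction, by 1.64 ± 0.39 in W2 vs PL (adjusted p = 0.026), short of the fold threshold. STAT5A (0.13 ± 0.49) and STAT5B (-0.62 ± 0.41), which carry the prolactin signal, and ELF5 (1.47 ± 0.91), an alveolar transcription factor, did not pass in lactation.

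Genes that modify caseins or supply the micelle with mineral were measured too. Of 10 genes of casein phosphorylation and O-glycosylation, 0 were called in EL and PL vs MG, LG and W2 by limma and 3 had an unadjusted p below 0.05, against 0.915% and 21.9% of all transcripts. FAM20C, the Golgi kinase that phosphorylates caseins, averaged 12.5 to 14.2 units at every stage, and its log2 fold change was 0.06 ± 0.20. ST3GAL1, of the same list, differed by 1.10 ± 0.28 in limma (adjusted p = 0.036), short of the fold threshold. Of 11 genes of calcium and phosphate supply, 0 were called there by limma (3 at an unadjusted p below 0.05, with the same background). In limma, ORAI1, a plasma membrane calcium channel, differed by 0.57 ± 0.14 (adjusted p = 0.029). SLC20A1, of the same list, differed the other way, by -1.97 ± 0.48 (adjusted p = 0.030). The median of the list was 0.47 against -0.35 over all transcripts. Of 9 measured proteases and inhibitors that act on caseins, 0 were called there by limma (4 at an unadjusted p below 0.05, with the same background).

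Caseins belong to the secretory calcium-binding phosphoproteins, of which 5 of the 12 listed relatives were measured. In lactation 0 of these 5 were called by limma and 3 had an unadjusted p below 0.05 (background 0.915% and 21.9%), and in W2 vs PL 2 were called lower (background 0.549%). SPP1, osteopontin, averaged 16.8, 12.7, 8.05, 180 and 19.7 units in MG, LG, EL, PL and W2 and fell in W2 vs PL by 3.04 ± 0.46 (adjusted p = 0.0025). ODAM, a protein first described in enamel formation, lies inside the casein cluster and averaged 0.405, 0.523, 0.945, 4.40 and 0.0268 units. It fell in W2 vs PL by 2.82 ± 0.64 (adjusted p = 0.020). SPARCL1, DMP1 and AMBN were not called.

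Within 500 kb of the caseins the annotation holds 29 other genes, of which 12 were in the table and 2 were called in at least 1 of 16 comparisons, as were 4.02% of all transcripts. Besides ODAM this was LOC106507819, a long non-coding RNA at 67084574 to 67090540 between ODAM and CSN3. It was at 2.73 to 39.6 units in PL, at most 0.950 units in EL and listed at 0 in all 3 W2 samples. It lies inside the span of LOC102160683 (67080135 to 67100128), a further non-coding RNA, which averaged 0.349 to 2.02 units. The span of LOC102160683 also runs past the start of CSN3. Reads in these overlaps could not be told apart by strand. PRR27, between CSN1S2 and ODAM, averaged at most 1.05 units at any stage. JCHAIN, the joining chain of secretory antibodies in the flank, averaged 554 to 1528 units and differed by 0.13 in lactation (adjusted p = 0.81).

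Likeness to the caseins was measured by Pearson r on log2 values over the 15 samples, against the mean profile of the 4 main transcripts, for 5672 reference transcripts with a mean of at least 10 units. The transcripts share libraries and a common sum, their median r was -0.52, and 8 reached 0.9. Both transcripts of XDH, xanthine oxidoreductase of the milk fat globule membrane, were among the closest (r of 0.98 and 0.96). The more abundant transcript averaged 168, 309, 768, 662 and 79.5 units in MG, LG, EL, PL and W2. PGLYRP1, a peptidoglycan recognition protein, had an r of 0.97 and averaged 964, 2509, 4421, 4128 and 297 units. PIGR, the receptor that carries antibodies into milk, had an r of 0.95 and averaged 162, 241, 339, 454 and 92.2 units.

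The other transcripts among the 10 most alike were MIR769, LOC100524679, LOC110260739, ANKRD22, LALBA and LOC110260741, with r from 0.93 to 0.89. MIR769 lies next to PGLYRP1 in the annotation. The 5 most opposite were SPTSSA, a subunit of serine palmitoyltransferase, SF3B6, a splicing factor, STX7, a syntaxin of endosomes, IDH3A, a subunit of isocitrate dehydrogenase, and PDLIM1, a cytoskeletal adaptor, with r from -0.94 to -0.93. SPTSSA averaged 67.5, 49.2, 40.4, 36.9 and 83.0 units in MG, LG, EL, PL and W2.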

How the data were processed

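Mammary gland tissue from 30 sows was sequenced from TruSeq v2 libraries. Per the labels and methods, the authors used FastQC and Trimmomatic for read quality, HISAT2 for alignment to Sscrofa11.1 and StringTie for quantification. The deposited FPKM values were made by the authors. They sum to nearly the same total in every sample, and whether the RUVs correction named by the authors was applied is not stated in the sources used here. The table holds no counts. Read totals and a count matrix that the study mentions were not used here, so depth per transcript is unknown from these values, and precision was taken from the spread between sows. Here log2(value + 0.5) was fitted with limma 3.58.1 in R 4.3.3, in a single model of the 15 counted samples and 5 stages with trended variance, without a filter on low values, and p-values were adjusted by Benjamini-Hochberg over 61773 transcripts in each comparison. Both thresholds are those of the study, whose own test ran on counts. Exact permutation tests and ratios were computed in Python (3.11.15) using scipy 1.17.1, pandas 2.3.3 and numpy 2.4.6. A gene of a list was represented by its transcript with the highest mean. Named genes were all casein transcripts, called members of the lists, whey proteins, annotated neighbours, and the 10 transcripts most like and 5 most unlike the mean casein profile, and other list members named to show a level were chosen after their values were seen. The members and lists were chosen with earlier results of these data known. The fit and the permutation test were tested on simulated data. No sequencing batch is given in the sources used here, so within-batch values could not be computed. No promoter, mRNA or protein sequence was analysed here.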

Additional observations from a re-analysis of the deposited data

Results flagged for a closer look

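Minor transcripts of CSN1S2 had values above 0 among the samples that were not counted, in stages where all 3 counted samples were at 0. For XM_021100497.1 the highest such value was 0.503 units in MG and 0.396 units in LG. For XM_021100498.1 it was 0.620 units in MG, 0.218 units in LG, 0.697 units in EL and 0.244 units in PL. The same held for other transcripts. Of those at 0 in all 3 counted samples of a stage (7358 to 11620 transcripts), 49.8 to 50.6% of the values in the samples not counted were above 0, with a maximum of 2.12 units. In groups of 3 samples, no test for a single sample far from the others was made.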

How the results depend on the processing

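Of 956 recomputed values, 901 kept their direction and their side of the threshold. All 4 caseins kept their direction in EL and PL vs MG, LG and W2 under every setting, and the number called stayed at 3 without each sample in turn, as it did in W2 vs PL. In lactation CSN2 lost its call after quantile normalization (1.45) and luminal scaling (3.03), and the cause was not tested. Without each sample in turn, the lactation log2 fold change ran from 0.80 to 1.05 for CSN1S1, 7.03 to 8.20 for CSN1S2, 2.18 to 2.80 for CSN2 and 2.51 to 2.87 for CSN3.

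The 10 casein calls over 10 comparisons became 6 with luminal scaling, 17 with the near-identical samples counted as 1 more sample, 21 with all 6 samples per stage, and 1 when each fit held only the stages compared and so fewer samples. They ran from 7 to 11 without each sample in turn. In W2 vs PL, 3 calls became 1 in that smaller fit. The share of all transcripts called under each changed setting is not given here, so these counts describe the settings rather than the caseins. The replicate numbers do not pair the sows (same-numbered samples of different stages had a median correlation of -0.05, and 3 of 15 samples correlated best with their own number), and with the replicate number as a block the 10 calls became 4 while the 3 calls in lactation and in W2 vs PL stayed at 3.

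Directions between neighbouring stages were not stable where the difference was small. CSN1S1 in EL vs LG turned to -0.43 after quantile normalization, and without each sample in turn it ran from -0.24 (without LG replicate 1) and -0.13 (without EL replicate 3) to 0.35 (without LG replicate 4). CSN2 in PL vs EL turned to 0.18 with median ratio scaling, and without each sample in turn it ran from -0.81 (without PL replicate 2) to 0.02 (without EL replicate 6) and 0.43 (without PL replicate 6). CSN3 there turned to -0.33 with luminal scaling. The ratio of CSN2 to CSN3 in lactation ran from -0.35 (without EL replicate 3) to 0.13 (without PL replicate 6) without each sample in turn. The 5 ratios past the threshold for PL against the other 12 samples became 3 without PL replicate 3 and ranged from 3 to 6, while those in lactation stayed at 5.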
